A study of Mus musculus with 16 samples.

Results

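Dazl and Ddx4 are germ cell genes, and their methylation was read here from all CpG sites that the deposited tables list in a window around each gene, on the GRCm39 build of the mouse genome. The windows were chosen by position, with no measured value in the rule. They span chr17:50584000-50604000 for Dazl and chr13:112732000-112793000 for Ddx4, both on the minus strand, with approximate starts at bases 50600600 and 112789000. Of the 3179510 CpG sites listed in any library, 119 lay in these windows, 65 at Dazl and 54 at Ddx4. Each strand of a CpG counts as a site. Of the 119 sites, 18 were listed in all 16 libraries, all of them at Ddx4.

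The data came from reduced representation bisulfite sequencing (RRBS), which cuts DNA with MspI at CCGG to enrich CpG-rich fragments and reads unmethylated cytosines as thymine. Mouse embryonic fibroblasts (MEFs, D0) of the strain labelled 129XOG2, from E13.5 embryos, were moved to a chemical reprogramming medium and sampled at D2, D4, D6, D8, D10 and D12; OG2 cells carry a green fluorescent reporter of the pluripotency gene Oct4. Induced pluripotent stem cells (iPSCs) formed the eighth group and were kept on feeder cells with LIF, CHIR99021 (a GSK3 inhibitor) and PD0325901 (a MEK inhibitor); the labels do not say whether feeders were removed. There were 2 libraries for each of the 8 groups, with 39011213 to 107834007 reads summed over listed sites. Nothing says that the 2 came from separate cultures, so a p-value covers only how far these libraries vary, which may be technical.

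Dazl encodes an RNA-binding protein that promotes translation of germ cell messages, and Ddx4 (also called Vasa or Mvh) encodes a DEAD-box RNA helicase of the germ granule. Both genes belong to a class with CpG-rich promoters that are methylated and silent in somatic cells and lose methylation in primordial germ cells. Many promoters of this class bind a repressor complex, PRC1.6, whose subunits E2F6 and MGA with MAX recognise an E2F motif and an E-box. The files hold no expression values, so neither the transcription of these genes nor the identity of the cells could be checked against markers.

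The promoter sequences show how dense the CpGs are and which of them were measured. They are the 250 bases before each RefSeq start, from RefSeq on GRCm38.p6, chr17:50293621-50293870 for Dazl and chr13:112652311-112652560 for Ddx4, both on the minus strand and written 5′ to 3′. Capitals mark 14 CpGs in each: at Ddx4 those measured in all 16 libraries on the forward strand, at Dazl those listed in D4 replicate 2.
Dazl: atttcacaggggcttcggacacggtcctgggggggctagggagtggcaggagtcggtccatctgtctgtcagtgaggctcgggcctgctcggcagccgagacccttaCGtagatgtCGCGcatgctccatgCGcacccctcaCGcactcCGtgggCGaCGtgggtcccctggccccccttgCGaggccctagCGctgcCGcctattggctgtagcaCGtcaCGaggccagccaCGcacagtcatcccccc
Ddx4: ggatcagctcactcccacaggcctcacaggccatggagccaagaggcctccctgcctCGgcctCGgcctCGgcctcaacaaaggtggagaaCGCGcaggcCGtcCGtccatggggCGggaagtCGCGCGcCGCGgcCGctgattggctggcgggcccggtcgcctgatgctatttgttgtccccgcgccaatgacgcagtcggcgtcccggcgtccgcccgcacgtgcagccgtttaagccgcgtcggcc

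Over the 300 bases that RefSeq gives around a start, 250 before and 50 after, the Dazl promoter holds 28 CpGs and the Ddx4 promoter 38. The median of 32851 mouse promoters is 7 CpGs, and 14.2% of them hold at least 28 and 4.95% at least 38. The sequences were placed on the deposited positions by the spacing of CpGs. All 22 listed CpGs in the span fell on a CpG of the Dazl sequence, as did all 16 at Ddx4. Only 1 of 10000 offsets did so for either gene. On this placement the RefSeq start of Dazl lies at base 50600648 and that of Ddx4 at base 112788844 of GRCm39. Distances below count from these starts. The gene models of GRCm39 were not used here, so exons and introns are not named.

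Motifs were searched on both strands of the 250 bases. The E2F6 motif TTCCCGC occurred 1 time at Ddx4, 136 bases upstream of the start and across a measured CpG, and the E-box CACGTG 1 time, 29 bases upstream. Dazl held 0 matches to either. Of all promoters, 3.82% held TTCCCGC, 6.02% CACGTG and 0.338% both. CCGG, the MspI site, occurred 2 times at Ddx4 and 0 times at Dazl, and 47.1% of promoters held it. A match is a string of letters and not a measured binding site.

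The measured part of the Ddx4 promoter was a single block. All 34 listed promoter sites lay 93 to 253 bases upstream of the start, at chr13:112788937-112789097, and 14 of them, 113 to 192 bases upstream on the forward strand, were listed in all libraries. These 14 sites give the promoter level, the methylated reads over all reads. Coverage was lowest in iPSC replicate 1, at 13 to 16 reads per site, and highest in D6 replicate 2, at 86 to 92. The sites lie so close that they share reads, so the depth behind a level is that of a site and not the sum over sites. It is smaller still if both mates of a read pair were counted, which was not tested.

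In MEFs the Ddx4 promoter was mostly methylated, at 62.1% and 77.3% in the 2 libraries. It stood at 68.5% and 71.4% at D2, 71.9% and 73.9% at D4, and 78.2% and 77.4% at D6. At D8 the libraries gave 62.0% and 59.0%, and at D10 they gave 75.1% and 55.8%. The D12 libraries were at 34.9% and 25.6%, below every earlier library, and the iPSC libraries at 14.8% and 19.2%, below both D12 libraries. Ordered by group mean, D6 (77.8% ± 0.610, SD, n = 2) was highest, followed by D4 (72.9% ± 1.44), D2 (69.9% ± 2.05) and D0 (69.7% ± 10.8). D10 (65.4% ± 13.6), D8 (60.5% ± 2.10), D12 (30.2% ± 6.61) and iPSCs (17.0% ± 3.09) came after. The libraries of neighbours in this order overlapped for D2 and D0, for D0 and D10, and for D10 and D8.

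Promoter level differed from MEFs by -39.5 points ± 8.94 (SE) at D12 and by -52.7 points ± 7.93 in iPSCs, and iPSCs differed from D12 by -13.2 points ± 5.16. The last of these was -8.56 points without D12 replicate 1 and -8.38 points over all sites that each library lists. The exact two-sided permutation p was 0.333 for each of the 3 differences, the smallest that 2 libraries against 2 allow. D12 retained 43.4% of the MEF level and iPSCs 24.4%. Over all common sites of the genome the corresponding figures were 34.9% and 93.6%. In iPSCs the promoter had kept a far smaller share than the common sites. At D12 its share over the 14 sites was larger, but this did not hold across the block. The 10 sites nearer to the start kept 48.5% at D12, and the other 4 kept 32.7%, below the common sites. In iPSCs these parts kept 21.5% and 30.3%. The promoter stood at 62.1% and 77.3% in the D0 libraries and at 34.9% and 25.6% in the D12 libraries. The D12 share was not tested against this spread.

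The same change was read from a fit across the genome, in which 94337 tiles of 1 kb with at least 3 common sites were tested with edgeR. A tile was called at a Benjamini-Hochberg adjusted p under 0.05 and a difference of at least 10 points. At Ddx4, 3 tiles entered it. The start tile, chr13:112788001-112789000, held 10 of the promoter sites. The second tile, chr13:112789001-112790000, held the other 4. The upstream tile, chr13:112792001-112793000, held 4 sites on the reverse strand, 3790 to 4039 bases upstream of the start. No Dazl site was common to all libraries, so no Dazl tile entered.

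From D0 to D12, 3 of 3 tiles were called lower, as were 82.7% of all tiles and 74.7% of the 19161 tiles with 10 to 19 listed CpGs, the density class of the start tile. The start tile went from 55.1% and 76.3% at D0 to 38.6% and 25.1% at D12, a change of -33.8 points (edgeR adjusted p = 0.00478). Without D0 replicate 2 it was -23.2 points and no longer called (edgeR adjusted p = 0.0523). The second tile went from 79.7% and 80.0% to 25.4% and 26.9%, a change of -53.7 points (edgeR adjusted p = 2.88e-07). The upstream tile went from 64.2% and 65.9% to 13.0% and 6.09%, a change of -55.5 points (edgeR adjusted p = 7.22e-06). A loss at D12 was the rule across the genome, where the median tile differed by -45.9 points.

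In iPSCs against MEFs, 2 of 3 tiles were called lower, against 9.42% of all tiles and 15.1% of those with 10 to 19 listed CpGs. The start tile was at 10.3% and 18.0% in iPSCs, -51.5 points from MEFs (edgeR adjusted p = 0.00208). The second tile was at 26.2% and 22.2%, -55.6 points from MEFs (edgeR adjusted p = 1.34e-05). These are the 2 tiles of the promoter block, which share reads and do not count as separate results. The upstream tile was at 67.5% and 60.7%, and its difference from MEFs was -0.918 points (edgeR adjusted p = 0.975). Over all tiles the median difference was -1.76 points.

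**Figure D1:**
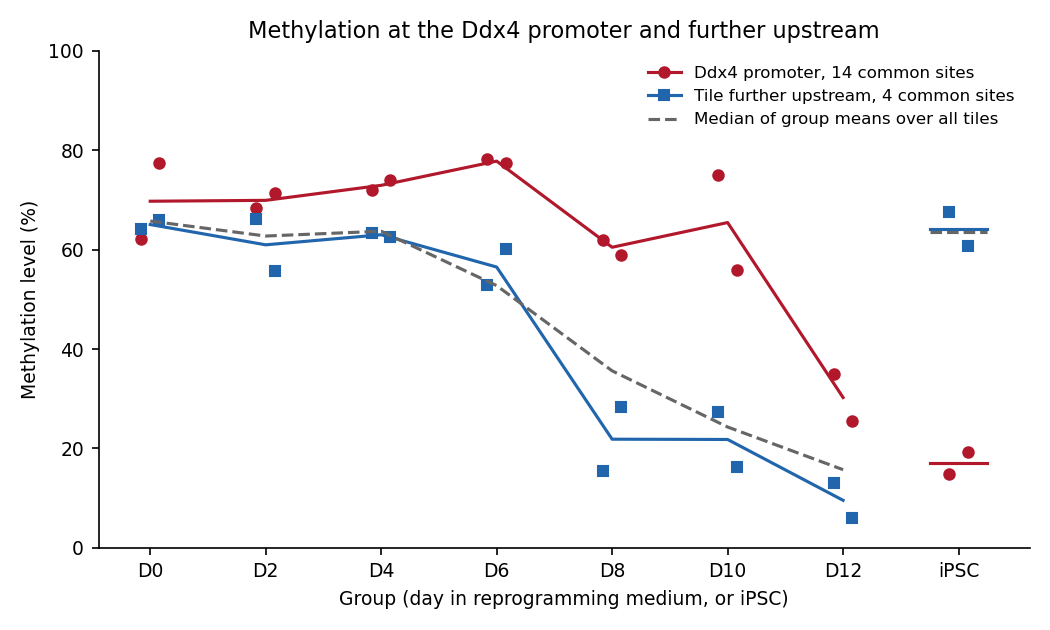
Methylation level in percent (vertical axis) by group (horizontal axis) for the Ddx4 promoter (circles, 14 sites) and the tile further upstream (squares, 4 sites), 1 mark per library, with lines through group means from D0 to D12, bars for the iPSC means and dashes for the median over all tiles. The promoter sites are on the forward strand and the upstream sites on the reverse strand. Both Ddx4 positions were lower at D12 than at D0. In iPSCs the upstream tile stood at 67.5% and 60.7% and the promoter at 14.8% and 19.2%.

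Between D12 and iPSCs the neighbouring positions parted. Of all tiles, 79.8% were called higher in iPSCs than at D12 and 1.48% lower, or 2.37% lower among those with 10 to 19 listed CpGs. The upstream tile was called higher, by 54.6 points (edgeR adjusted p = 9.83e-06). The start tile was called lower, at -17.7 points (edgeR adjusted p = 0.0330), and the second tile differed by -1.91 points (edgeR adjusted p = 0.640). The call of the start tile was lost without D12 replicate 1 (-10.9 points, edgeR adjusted p = 0.202) and without iPSC replicate 1 (-13.9 points, edgeR adjusted p = 0.177). It was also lost with both strands counted (-12.7 points, edgeR adjusted p = 0.0906). In each of these 3 settings its difference stayed below 0, and the median over all tiles was 43.7 points. Promoter level minus upstream level was 21.9 and 19.5 points in the D12 libraries and -52.7 and -41.6 points in the iPSC libraries. The change was -67.8 points ± 5.69 (SE, exact permutation p = 0.333, the smallest possible). It sets forward-strand promoter sites against reverse-strand upstream sites. On the forward strand the upstream CpGs were at 34.5% and 52.8% at D12, against 34.9% and 25.6% at the promoter. In iPSCs they were at 70.1% and 75.0% (replicate 2 on 2 sites), against 14.8% and 19.2%. The gap at D12 thus depended on the strand.

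**Figure D2:**
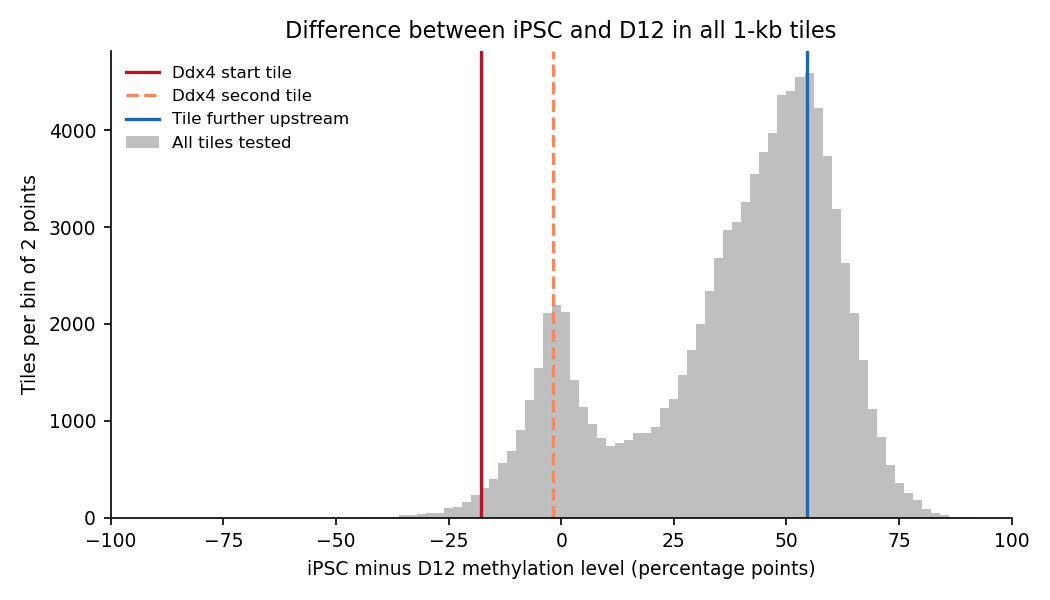
Number of 1-kb tiles (vertical axis) by iPSC minus D12 methylation in percentage points (horizontal axis, bins of 2 points), with the 3 Ddx4 tiles as vertical lines. The upstream tile (54.6 points) lies in the main body of the distribution, and the start tile (-17.7 points) and second tile (-1.91 points) lie well below the median of 43.7 points. The second tile falls in a smaller peak of the distribution, in the bin from -2 points, which holds 2195 tiles.

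On the days before D12 the promoter tiles and the upstream tile also differed, but their common sites lie on opposite strands. On the reverse strand of the 14 promoter CpGs the D8 difference from MEFs was -27.7 points, nearer to that of the upstream tile. At D2 and D4, 0 of 3 tiles were called lower, against 0.0488% and 0.0763% of all tiles. At D6 it was again 0 of 3, against 21.3%, and the start, second and upstream tiles differed from MEFs by 9.58, 4.36 and -8.55 points. At these 3 days no member tile reached an unadjusted edgeR p under 0.05, and no other tool was run for them. At D8, 2 of 3 tiles were called, against 72.3% of all tiles. The upstream tile, at 15.4% and 28.3%, differed by -43.2 points (edgeR adjusted p = 0.000468). The second tile, at 67.2% and 68.0%, differed by -12.2 points (edgeR adjusted p = 0.00702), and the start tile by -8.07 points (edgeR adjusted p = 0.415).

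D10 against D0 and D12 against D10 were added after the values had been seen. At D10, 81.6% of all tiles were called lower than in MEFs, and at Ddx4 the upstream tile was (27.3% and 16.3%, -43.2 points, edgeR adjusted p = 0.000208). The start tile, at 73.3% and 48.1%, differed by -5.00 points (edgeR adjusted p = 0.632), and the second tile, at 79.5% and 74.7%, by -2.69 points (edgeR adjusted p = 0.508). The D10 libraries lay far apart at the start tile: its difference was 7.60 points without D10 replicate 2 and -17.6 points without D10 replicate 1. From D10 to D12, 3 of 3 tiles were called lower, against 31.9% of all tiles, with differences of -28.8 points at the start tile, -51.0 at the second and -12.2 upstream (edgeR adjusted p = 0.0321, 0.000320 and 0.0421). With only the D10 and D12 libraries in the edgeR fit, 0 of the 3 were called (adjusted p = 0.161, 0.115 and 0.194), as were 0 of all 94337 tiles, while the start and second tiles had an unadjusted p under 0.05. The quasi-binomial model over all libraries called 2 of the 3. Without D10 replicate 1 or without D12 replicate 2 only the second tile was. With strands merged, the start tile (-19.8 points, edgeR adjusted p = 0.0836) and the upstream tile (-4.21 points, edgeR adjusted p = 0.579) were not called.

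Strand bears on the D8 and D10 values. The common promoter sites are all on the forward strand, and 15 libraries also listed the reverse strand of the same 14 CpGs, all except D12 replicate 2. Reverse minus forward ranged from -23.5 points in D10 replicate 1 to 15.9 points in iPSC replicate 1, with a median of -1.54 points. On the reverse strand the level was 72.9% and 89.1% at D0, 59.6% and 47.0% at D8, and 51.5% and 44.9% at D10. It was 33.9% in D12 replicate 1 and 30.7% and 16.3% in iPSCs. D10 thus differed from D0 by -32.8 points on the reverse strand and by -4.29 points on the forward strand. The upstream tile, measured on the reverse strand, differed by -43.2 points. In change from D0 to D10, the 2 positions thus differed less on the reverse strand than across strands. Their D10 levels on the reverse strand were still apart, with 27.3% and 16.3% upstream. On the forward strand the upstream CpGs were at 82.0% and 72.8% at D0 and at 38.5% in D10 replicate 1. The promoter stood at 75.1% on that strand in the same library. D10 replicate 2 lists no forward-strand site upstream. The D12 and iPSC levels of the promoter were the lowest on both strands.

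Counting both strands, the promoter level was 74.6% ± 11.9 (SD, n = 2) at D0, 57.0% ± 5.78 at D8, 57.0% ± 8.33 at D10, 30.2% ± 6.52 at D12 and 20.5% ± 3.24 in iPSCs. D12 replicate 2 enters this D12 mean with its forward strand only. With strands merged, the start and second tiles were called lower at D10 (-18.2 and -16.1 points, edgeR adjusted p = 0.0483 and 0.000843). The median level over all tiles was 65.7% at D0 and 24.3% at D10. Strand differences of this size were not confined to Ddx4: in D10 replicate 1, 14.7% of the tiles with both strands listed differed by at least 20 points. The cause of the strand difference was not tested.

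**Figure D3:**
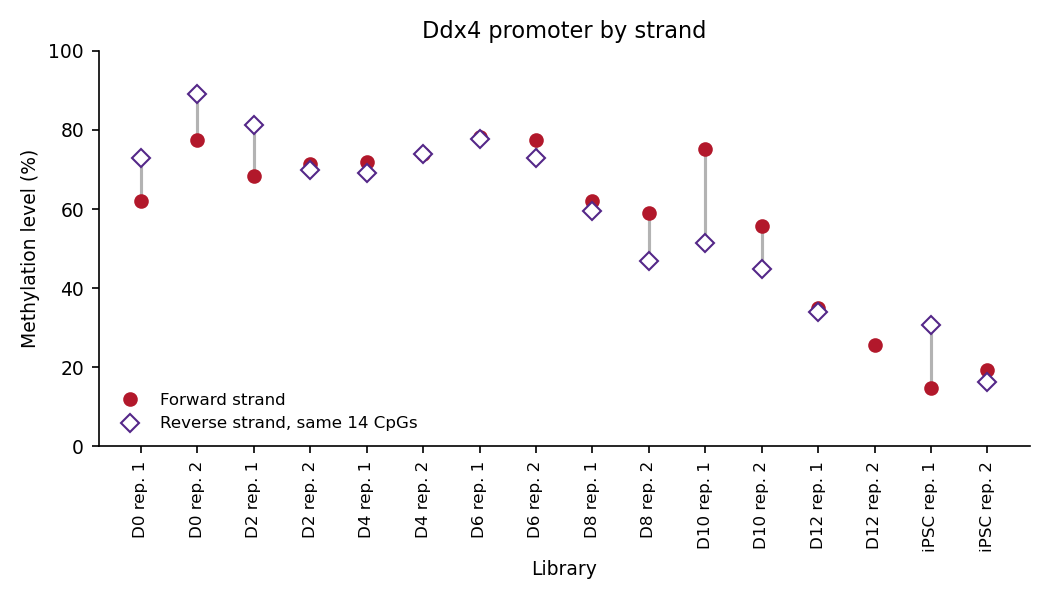
Methylation level of the Ddx4 promoter in percent (vertical axis) in each library (horizontal axis) on the forward strand (circles) and the reverse strand of the same 14 CpGs (open diamonds), joined by a line. The strands are farthest apart in D10 replicate 1, at 75.1% and 51.5%; D12 replicate 2 has a forward value only.

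Within the block, all 14 sites had a lower mean at D12 than at D0, and in 12 both D12 libraries were below both D0 libraries, against 64.7% of all common sites. Group means of the 14 sites ran from 48.3% to 93.5% at D0, from 11.2% to 46.7% at D12 and from 3.85% to 36.5% in iPSCs. In iPSCs both libraries were below both D0 libraries at 14 of 14 sites, against 29.6% of all common sites. Neighbouring CpGs share reads, so the 14 are not independent.

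Against D12, both iPSC libraries were lower at 8 sites and higher at 2, against 9.47% and 60.1% of all common sites. The 2 ends of the block, picked after their values were seen, went opposite ways. The common site nearest to the RefSeq start, 113 bases upstream, was at 47.4% and 27.6% at D12 and at 0% and 17.4% in iPSCs. The farthest, 192 bases upstream, was at 18.8% and 28.6% at D12 and at 37.5% and 30.8% in iPSCs. Of the 3 sites nearest to base 112789000, the one at 112788993 was at 60.9% and 86.7% in MEFs, 5.71% and 26.7% in D12 cells, and 12.5% and 23.1% in iPSCs. The one at 112789000 itself was at 55.6% and 85.7%, 36.8% and 34.5%, and 50.0% and 23.1%. The one at 112789002 was at 56.5% and 46.7%, 29.3% and 17.2%, and 0% and 8.33%. At the last of these no library of a group reached into the range of another of the 3 groups. The CpG in the TTCCCGC match, base 112788978, was at 60.9% and 66.7% at D0, 37.0% and 26.7% at D12, and 0% and 23.1% in iPSCs. Single iPSC sites have a coverage of 13 to 26 reads. They rest on fewer fragments if both mates of a read pair were counted, which was not tested.

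**Figure D4:**
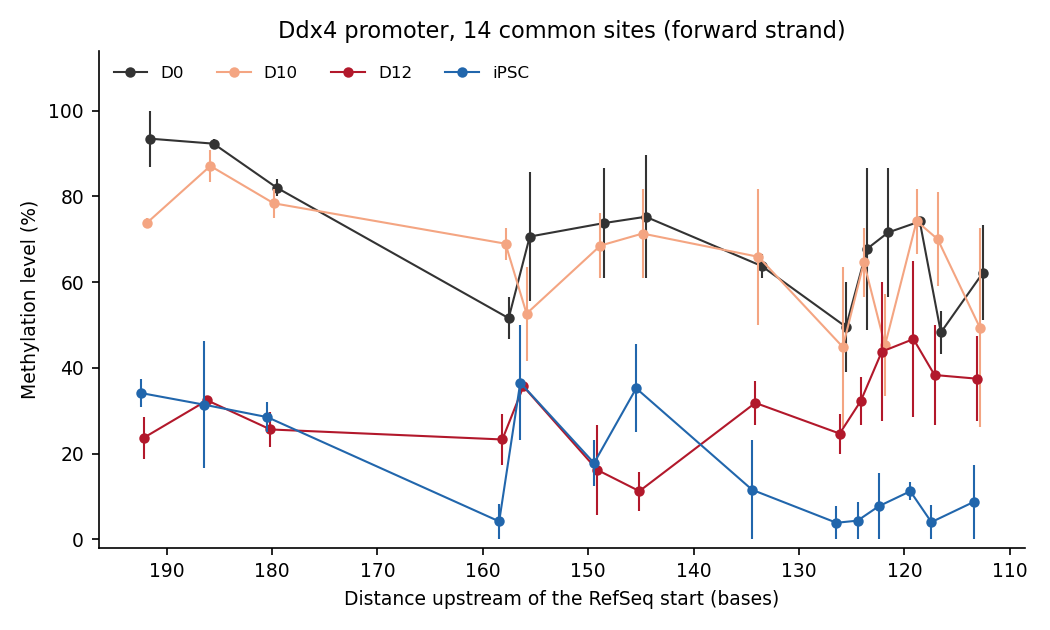
Methylation level in percent (vertical axis) of each of the 14 common Ddx4 promoter sites by distance upstream of the RefSeq start in bases (horizontal axis), with points for group means and vertical lines joining the 2 libraries of a group. D0 means lie between 48.3% and 93.5%, and the D12 and iPSC means do not exceed 46.7%.

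The upstream tile is a fragment of its own, listed at 4 CpGs, chr13:112792633-112792883. Its 4 common sites are on the reverse strand, and the outermost of them was low everywhere, between 1.72% and 20.0%. Without that site the level was 78.1% and 79.7% at D0, 12.9% and 7.24% at D12, while the iPSC libraries were at 83.9% and 73.4%. In iPSCs the mean was 64.1% with that site and 78.7% without it, so the contrast with the promoter was larger there without it. At D12 the mean was 9.56% with it and 10.1% without it, so the contrast there was little changed. The forward strand of these CpGs was at 34.5% and 52.8% at D12, above the reverse strand at 13.0% and 6.09%, and at 70.1% and 75.0% in iPSCs. In iPSCs, replicate 2 lists only 2 of the 4 forward-strand sites, so its value is not over the same sites as the others. The D12 level differed by strand.

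At Dazl the coverage was thin. All 65 sites lay at chr17:50600414-50601095, within 3 kb of the start, and none further into the gene was listed. The tables list a site from 10 reads, and 59 of the 65 sites reached this in 1 library only. The libraries that list Dazl are D0 replicates 1 and 2 (6 sites each), D4 replicate 2 (41), D6 replicate 2 (25), D8 replicate 1 (5) and D12 replicates 1 and 2 (6 each). No D2, D10 or iPSC library lists a Dazl site, so its level there, and whether Dazl follows Ddx4 in iPSCs, was not measured.

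Where it was covered, Dazl was mostly methylated before D12, with lower single sites. In D6 replicate 2, base 50600491 was at 37.5%, base 50600489 at 75% and the site at the RefSeq start at 31.8%. That last site was at 47.1% and 54.5% in the D0 libraries. Base 50601094 was at 50% in D4 replicate 2. In D4 replicate 2, 41 sites from the start to 447 bases upstream gave 98.2%, and in D6 replicate 2, 25 sites gave 91.1%. A group of 5 forward-strand sites, 97 to 143 bases downstream of the start, was shared by 6 libraries. It was at 100% in D0 replicate 1 (18 reads per site) and D0 replicate 2 (12 reads per site), 96.2% in D6 replicate 2 (31 to 32) and 100% in D8 replicate 1 (11 to 12). At D12 it was at 86.4% in replicate 1 (17 to 18 reads per site) and at 71.4% in replicate 2 (14 reads per site). Both D12 libraries were below the other 4. Because the 5 sites share reads, the counting error is that of 1 site. At the site nearest to the RefSeq start, D0 had 18 of 18 and 12 of 12 methylated reads, with 95% Wilson intervals from 82.4% and 75.8% to 100%. D12 had 16 of 18 reads (67.2% to 96.9%) and 10 of 14 reads (45.4% to 88.3%) there. These intervals overlap, but overlap between intervals of single libraries is not a test of the difference between groups. The counts of a single site were not tested.

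With the sixth shared site, at the RefSeq start, the Dazl level was 91.6% and 93.0% at D0 and 78.8% and 66.7% at D12. The difference was -19.5 points ± 6.10 (SE, exact two-sided permutation p = 0.333, the smallest possible) with the site and -21.1 points without it. A fit of the 144718 tiles formed by sites listed in the D0 and D12 libraries included the tile chr17:50600001-50601000, which was called lower (-19.5 points, edgeR adjusted p = 0.0200). In that fit 78.5% of tiles were called lower. The fit, like every tile test here, counts a read at each site it covers, and its spread is estimated between libraries.

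The 5 Dazl sites retained 78.9% of their MEF level at D12, against 43.4% at the Ddx4 promoter and 34.9% over all common sites. In the same D12 libraries Dazl stood at 86.4% and 71.4% and the Ddx4 promoter at 34.9% and 25.6%. At D0 the values had been 100% and 100% against 62.1% and 77.3%. The difference between the genes was not tested: their sites come from different fragments, the Dazl sites lie downstream of the start and the Ddx4 sites upstream of it.

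**Figure D5:**
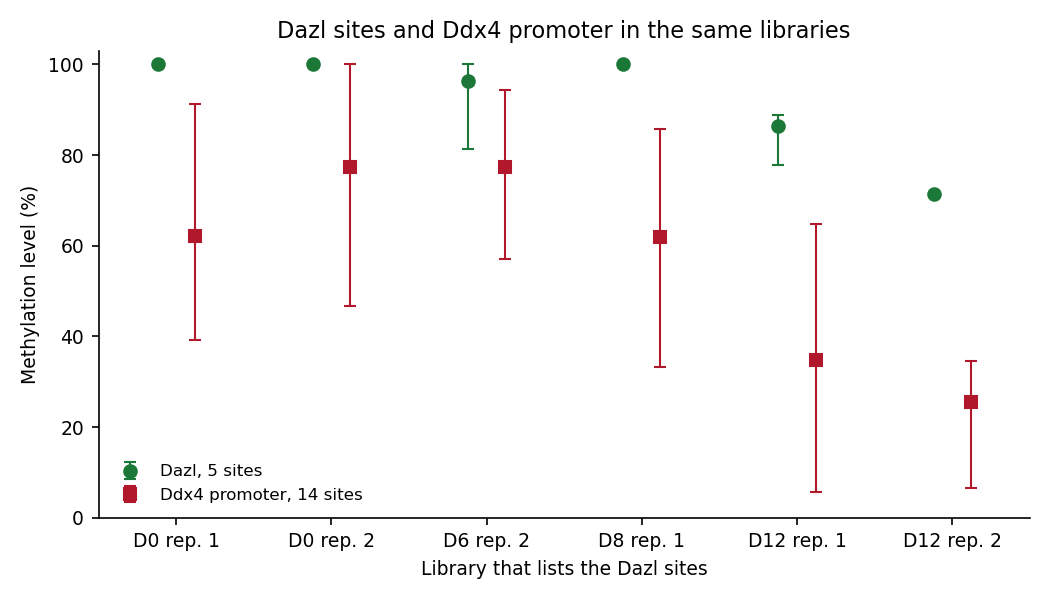
Methylation level in percent (vertical axis) of the 5 shared Dazl sites (circles) and of the 14 common Ddx4 promoter sites (squares) in the 6 libraries that list the Dazl sites (horizontal axis); bars run from the lowest to the highest single site and are not errors. The Dazl level lies above Ddx4 in each library and is lowest at D12, at 86.4% and 71.4%.

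The 3 tiles with the course most like that of the Ddx4 start tile were those with the smallest root mean square difference from it over the 8 group means, a description with no test. They were chr2:174170001-174171000 (4.52 points, 52 common sites), chr2:106750001-106751000 (5.22 points) and chr2:64143001-64144000 (5.34 points). The first had means of 72.9% at D0, 58.1% at D10, 31.7% at D12 and 7.19% in iPSCs, where the start tile had 65.7%, 60.7%, 31.9% and 14.1%. Which genes lie there was not looked up.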

How the data were processed

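Per the submitters' processing notes, reads were processed with fastp 0.20.1, Bismark 0.23.0, Bowtie2 and methylKit on GRCm39; the sources used here give no settings, duplicate handling or treatment of filled-in ends. The deposited tables give, per the file headers, the coverage of a CpG (a count of reads, at least 10) and the percent of reads called C or T. Methylated read counts were recovered from coverage and percent, and 0 sites gave a count that was not whole. Common sites were those listed in all 16 libraries (873038, or 27.5%). Libraries had median coverage of 18 to 27 reads per site, and groups came from the labels.

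Tiles were tested with edgeR 4.0.16 (R 4.3.3): quasi-likelihood on methylated and unmethylated counts, an effect per library, a methylation coefficient per group, a common dispersion and 8 residual degrees of freedom. Tested on simulated data of 10000 tiles for D12 against D0, it recovered 98% of drops of 30 points and 100% of drops set at 50 points. The latter were made smaller in tiles whose starting level was too low for them. The simulated spread was 1 value estimated from the D0 libraries over these tiles. The rates therefore do not speak for the start tile, whose D0 libraries were at 55.1% and 76.3%. Region levels were compared by exact permutation.

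The windows, lists and tests were chosen with earlier results of these data known. Named tiles are all those that entered the fit; single sites are the 3 nearest to the approximate start, with the sites at block ends and in the TTCCCGC match chosen after their values were seen, and 3 tiles were named for likeness. The Dazl level was planned on sites common to all libraries, of which there were 0, so the sites listed in the D0 and D12 libraries took their place. Inner sites of the Ddx4 block had 1.92 to 2.07 times the coverage of its outer sites; whether both mates of a read pair were counted was not tested, and intervals are then too narrow. Other germline genes were not analysed here. Alternatives were another coverage minimum, site set, model, tile frame, strand handling, minimum difference, a replicate block and leaving out each library.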

Additional observations from a re-analysis of the deposited data

How the results depend on the processing

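The promoter levels of Ddx4 and Dazl kept their direction for D12 against D0, iPSC against D0 and iPSC against D12 under each alternative that gave a value. Leaving out 1 library at a time moved the Ddx4 promoter difference between -47.1 and -31.9 points for D12 against D0, -60.3 and -45.1 for iPSC against D0, -17.9 and -8.56 for iPSC against D12, and -44.8 and -25.6 for D12 against D10, and that of Dazl for D12 against D0 between -25.6 and -13.5. For D10 against D0 the Ddx4 promoter ran from -13.9 to 5.35 points, and its sign turned without D0 replicate 2 (3.33) and without D10 replicate 2 (5.35); the start tile turned with it (-17.6 to 7.60 over the 4 libraries left out, 5.60 without D0 replicate 2).

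Of the 3 tiles called lower at D12 against D0, 1 was left with at least 20 reads per site, since no promoter site then stayed common. For iPSC against D0 (2 called lower), that setting left 0, and shifting the tiles by 500 bases left 1, since 1 shifted tile held all 14 promoter sites. For iPSC against D12, the 1 tile called lower was lost (0 called) at a minimum difference of 25 points, at 20 reads per site, with strands merged, without D12 replicate 1 and without iPSC replicate 1; the quasi-binomial model called 1. For D10 against D0 (1 called lower), 2 were called on the sites listed in those groups and 3 with strands merged. For D12 against D10 (3 called lower), 0 were called with those groups fitted alone or on the sites they list, where the spread comes from 4 libraries; 1 was called at 20 reads per site, with strands merged, without D10 replicate 1 and without D12 replicate 2. Without iPSC replicate 2, 2 uncalled differences changed sign: the upstream tile against D0 (2.46 points, -4.30 without iPSC replicate 1) and the second tile against D12 (0.0888 points, -3.92 without iPSC replicate 1).

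Replicate numbers did not pair the samples: over 28 pairs of groups the correlation of deviations lay between -0.0144 and 0.00778. A fit with a replicate block called 3 tiles lower for D12 against D0, 2 for iPSC against D0 and, for iPSC against D12, 1 lower and 1 higher, as without it. At 20 reads per site the Ddx4 promoter gave no value. The Dazl promoter gave none in iPSCs, and the gene bodies of Dazl and Ddx4 gave none for any planned contrast. With 2 libraries a group, region differences cannot pass an exact test.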

Other observations

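The far end of the Ddx4 gene was listed in 4 libraries, at 6 CpGs 54812 to 55311 bases downstream of the RefSeq start (chr13:112733533-112734032). The level was 91.3% in D0 replicate 1 (7 sites), 100% in D6 replicate 2 (6 sites), 93.3% in D8 replicate 1 (3 sites) and 72.7% in D12 replicate 2 (6 sites). The libraries list different sites and strands here, so no comparison was made.

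Some sites at the edge of a block differed from their partner on the other strand, chosen here after their values were seen. At the upstream edge of the Ddx4 promoter block, the forward-strand site at base 112789096 was between 0% and 13.0% in the 15 libraries that list it. The reverse-strand site of the same CpG was between 70.0% and 100% in the 7 libraries that list it. At the other edge, the first reverse-strand site was between 0% and 42.9% in 8 libraries, below its forward partner in each except D0 replicate 2 (42.9% against 40%). In the upstream tile, the forward-strand edge site at base 112792882 was at 28% and 50.0% at D12, above its reverse partner at 11.4% and 8.77%, and at 28.6% and 17.6% at D0, below that partner at 82.3% and 71.9%. The Dazl site at the RefSeq start was at 47.1% and 54.5% in the D0 libraries, where it is the last site listed on its side, and at 100% in D4 replicate 2, which lists the sites beyond it. Per the labels' protocols, MspI ends were filled in with a mix that holds dCTP. Its part in these values was not tested. These edge sites are not among the 14 common promoter sites. The Dazl site at the RefSeq start is among the 6 sites of the Dazl tile called lower at D12. The low outermost reverse-strand site of the upstream tile is among the 4 common sites of that tile.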
